A study of Mus musculus with 6 samples.

Results

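The subject here is the SLAM family of lymphocyte receptors with the adaptor and the kinase that carry their signal: the genes Sh2d1a, Slamf1, Slamf6, Slamf7, Ly9, Cd84, Cd48 and Fyn. Their members are the 14 probe sets, of 45037 on the array beside its controls, that the array annotation assigns to 1 of these 8 genes and to no other gene. In all, 18193 genes had such a probe set. They were read in DN2 cells sorted from fetal mouse thymus, which are early thymocytes with neither CD4 nor CD8 that still hold several lineage choices. The 3 wild-type and 3 E2A-deficient samples all had the FVB genetic background and 1 Affymetrix array each. E2A is the E protein transcription factor made from the Tcf3 gene. The labels do not give the E2A allele, the fetal age, the sex or how many thymi went into a sample. They do not say that replicates came from separate animals either, so the p-values cover the spread between these samples alone. How much of that spread is technical is not known.

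SLAM receptors are surface immunoglobulin-type proteins of blood cells, and most of them bind the same receptor on a neighbouring cell. Several carry tyrosine switch motifs in their tails that bind SAP, the small SH2-domain adaptor encoded by Sh2d1a, and SAP brings in the Src family kinase Fyn. In the thymus this axis is known for its part in the development of NKT cells and other innate-like T cells, and loss of the human SAP gene causes X-linked lymphoproliferative disease.

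Of the SLAM axis, the adaptor gene Sh2d1a and the receptor gene Slamf1 rose in E2A-deficient cells and the ligand gene Cd48 fell. No probe set of Slamf6, Slamf7, Ly9, Cd84 or Fyn passed the test. A log2 change is the E2A-deficient mean minus the wild-type mean of log2(intensity + 1). A probe set was called at a limma p under 0.05 after Benjamini-Hochberg adjustment over all 45037 probe sets. By this rule 3 of the 14 probe sets were called, 2 higher and 1 lower, or 21.4%. Of all probe sets 1.79% were called, 1.21% higher and 0.58% lower. The members were chosen with earlier results of these data known, so their share is no independent evidence. The median log2 change was 0.028 over the 14 and 0.0039 over all probe sets. Because these are bulk samples, fewer cells that express a gene and less RNA per cell cannot be told apart.

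**Figure D1:**
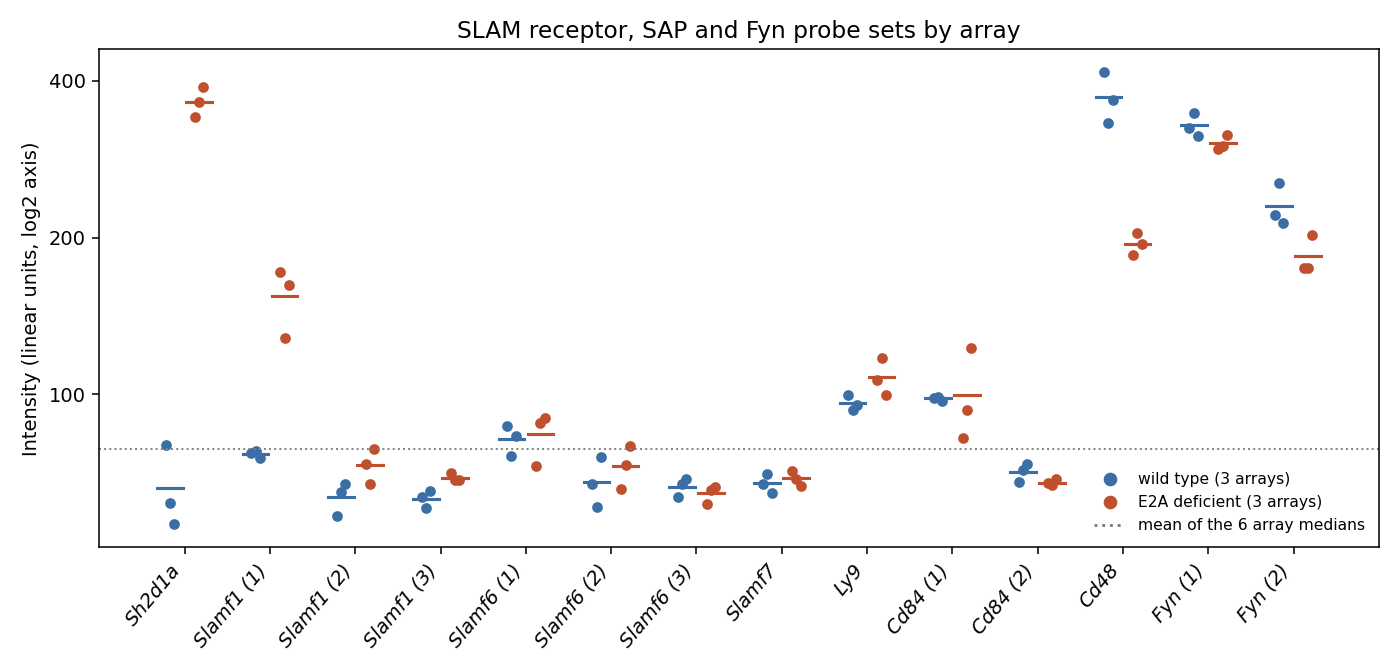
Intensity of the 14 probe sets on each array, on a log2 axis. Points are arrays, short bars are group means, the dotted line is the mean of the array medians, and numbers in brackets order the probe sets of a gene from the brightest. Sh2d1a and the brightest Slamf1 probe set are higher on all 3 E2A-deficient arrays, Cd48 is lower on all 3, and 6 probe sets lie below the median of all probe sets.

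The deposited intensities were linear, with array medians from 77.4 to 79.0, and the arrays correlated at 0.984 to 0.990 within a group and at 0.975 to 0.984 between groups. Tcf3 intensity was 414 to 477 on the wild-type arrays and 229 to 281 on the E2A-deficient arrays. The defining DN2 genes Kit, Il2ra and Cd44 did not pass and were bright in both groups, at 287 ± 13.3, 906 ± 97.5 and 404 ± 25.6 in wild-type cells (SD, n = 3). Of the other markers fixed for the stage, Thy1 and Cd3e fell, with log2 changes of -1.32 and -1.60 (limma adjusted p = 0.00257 and 2.84e-04) and Cd24a did not pass. Of these 6 stage markers 4 had an unadjusted limma p under 0.05, against 16.2% of all genes. Cd4, Cd8a and Cd8b1 all lay below the upper quartile of the intensities, 134. By the median of all probe sets, Cd4 and Cd8a lay above it, at wild-type means of 85.3 and 86.6, and Cd8b1 below, at 68.9. The wild-type arrays differed in the ratio of 5' to 3' signal at the beta-actin control probes, which was 0.104 and 0.0982 for replicates 1 and 3, and 0.162 for replicate 2, while the E2A-deficient arrays had 0.149 to 0.165. They also differed in Xist, the RNA of the inactive X chromosome, at 3055, 4456 and 58.7, against 1247 to 2154 on the E2A-deficient arrays. The Y-linked gene Eif2s3y read 204, 58.0 and 343 on wild-type arrays 1 to 3, and 208 to 339 on the E2A-deficient arrays. The wild-type samples thus held different mixtures of the sexes and are not repeats of 1 sample. With 3 arrays per group, the number of arrays limits the precision.

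Sh2d1a encodes SAP and lies on chromosome X. Its probe set read 79.8, 61.8 and 56.3 on wild-type arrays 1 to 3 and 341, 364 and 390 on E2A-deficient arrays 1 to 3. The wild-type arrays were near or below the array medians, and every E2A-deficient array was far above them, with no overlap. The mean went from 66.0 ± 12.3 to 365 ± 24.8 (SD, n = 3), which is 2.46 on the log2 scale (SE 0.127, 95% confidence interval 2.17 to 2.76, limma adjusted p = 2.87e-04). This is a 5.51-fold rise on that scale. Because the wild-type values lie near the low end of the intensities, where background remains in the signal, the fold may be understated.

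Since Sh2d1a is X-linked, its values were set beside Xist. Wild-type replicates 2 and 3 had the highest and the lowest Xist of the 6 arrays, and their Sh2d1a values were 61.8 and 56.3. With log2 Xist as a covariate, a setting chosen after the data were seen, the Sh2d1a change was 2.42 (limma adjusted p = 8.86e-04). Its adjusted p was at most 0.0123 over 17 alternative settings, and Sh2d1a passed in each of them, the beta-actin ratio included.

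By the root mean square distance between log2 profiles centred on the wild-type mean, over the 6 arrays, 5 genes lay nearest to Sh2d1a. St6gal1, which encodes a sialyltransferase, was at a distance of 0.069. It read 84.0 ± 14.8 in wild-type and 479 ± 23.7 in E2A-deficient cells (SD, n = 3). The kinase gene Sgk1 followed at 0.18, the chromatin protein gene Hmga2 at 0.20, and the nuclear receptor gene Rora and the HMG-box gene Tox2 at 0.25 each. These distances describe the arrays, and genes with a large shift between the groups are near each other by construction.

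**Figure D2:**
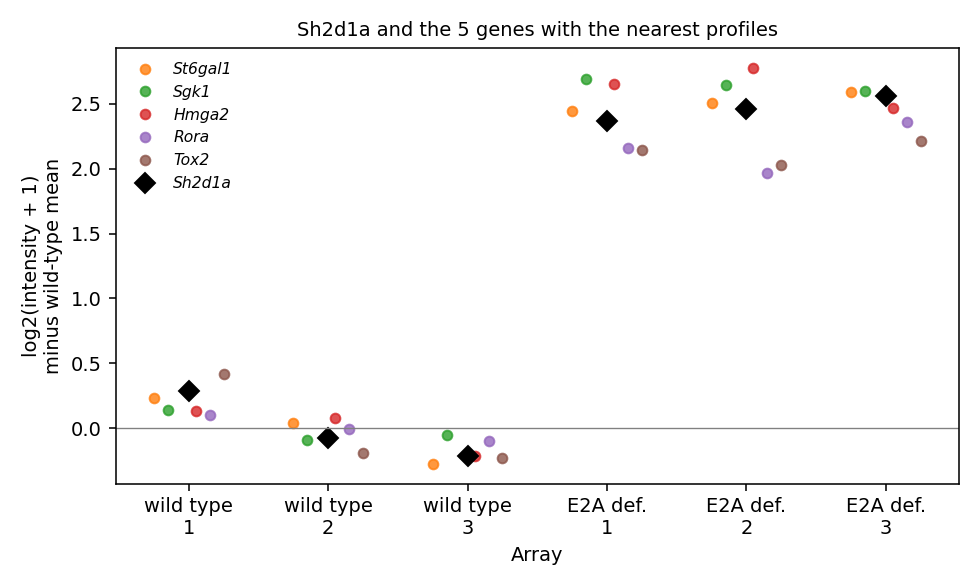
Log2(intensity + 1) minus the wild-type mean on each array for Sh2d1a (black diamonds) and the 5 genes with the nearest profiles (coloured points, spread sideways for legibility). All 6 genes lie near 0 on the wild-type arrays and about 2 or more log2 units higher on the E2A-deficient arrays, with St6gal1 nearest to Sh2d1a.

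Fyn, the kinase that SAP recruits, is on chromosome 10 and had 2 probe sets, for which the annotation names the same transcript. The brighter read 325, 346 and 314 on wild-type arrays 1 to 3 and 296, 300 and 314 on E2A-deficient arrays 1 to 3. The groups overlapped at E2A-deficient replicate 3, and the log2 change was -0.11 (SE 0.0604, limma adjusted p = 0.538). The other read 221, 255 and 213 in wild-type and 175, 175 and 202 in E2A-deficient cells. It was lower on all 3 E2A-deficient arrays, with a log2 change of -0.32 (95% confidence interval -0.53 to -0.10). That change did not pass over all probe sets (limma adjusted p = 0.181, unadjusted p = 0.00965). So Fyn was bright in both groups, and neither probe set differed beyond the threshold.

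Slamf1 encodes the founding SLAM receptor, which binds itself on other cells, recruits SAP and is also a marker of blood stem cells. Its brightest probe set read 77.1, 77.9 and 75.4 on wild-type arrays 1 to 3 and 172, 128 and 163 on E2A-deficient arrays 1 to 3. The wild-type values lay close together near the array medians, and all E2A-deficient values were higher. The mean went from 76.8 ± 1.30 to 154 ± 22.9 (SD, n = 3), which is 0.99 on the log2 scale (SE 0.107, 95% confidence interval 0.74 to 1.24, limma adjusted p = 0.00636). Adding the beta-actin ratio to the model gave 0.97, which missed the threshold (limma adjusted p = 0.114). Over its 17 alternatives the adjusted p ran from 4.44e-04 to that value, and the other 16 passed. Wild-type replicate 2, whose ratio lies within the E2A-deficient range, read 77.9.

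The annotation names the same transcript sequence for the 3 Slamf1 probe sets, which did not agree in size. The second read 58.3, 65.0 and 67.3 in wild-type and 73.6, 67.3 and 78.6 in E2A-deficient cells, a log2 change of 0.20 (limma adjusted p = 0.370). The third read 63.6, 60.4 and 65.1 in wild-type and 70.5, 68.6 and 68.4 in E2A-deficient cells, a log2 change of 0.13 (limma adjusted p = 0.375). Both lay below the median of all probe sets, and neither was called. In all 3 the E2A-deficient arrays lay above the wild-type arrays, although the closest pair of arrays in the second all but touched, both at 67.3. Non-overlapping groups occurred in 6 of the 14 member probe sets, and in 16.9% of all probe sets.

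E proteins bind DNA at E-boxes, CANNTG. A match to this pattern on either strand is also a match on the other, though the bases at NN may differ. The 249 bases before the annotated start were taken from RefSeq (GRCm38.p6) for the 6 members with an entry, Slamf1, Slamf6, Slamf7, Cd84, Cd48 and Fyn. The Slamf1 stretch is given whole because Slamf1 is the called receptor. It lies at chr1:171766882-171767130 on the plus strand, written 5′ to 3′ with its E-box in capitals:
Slamf1: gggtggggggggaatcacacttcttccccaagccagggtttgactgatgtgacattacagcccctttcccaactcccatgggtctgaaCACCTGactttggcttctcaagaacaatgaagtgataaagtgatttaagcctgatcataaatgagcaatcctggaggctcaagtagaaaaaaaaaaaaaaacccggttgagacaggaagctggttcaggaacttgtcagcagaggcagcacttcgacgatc

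The Slamf1 E-box begins 161 bases before the start and is CACCTG. The E-box of Cd48, the gene that fell, and those of receptors that were not called are given with up to 10 bases on each side for comparison:
Cd48: aatctcattcCATGTGgtgtgatggt
Slamf7: tgtgattcttCATCTGtaatagaaag
Cd84: ggttatggtaCAGTTGaggtgtcatt
Slamf6: atgaCAACTGggctaggctc
They lie at chr1:171681904-171681929 on the plus strand, chr1:171649110-171649135 on the minus strand, chr1:171839513-171839538 on the plus strand and chr1:171917212-171917231 on the plus strand. Each of these 5 stretches held 1 E-box, whichever way its gene moved, and the Fyn stretch held none. Of 32851 RefSeq windows of the same length, 66.1% held at least 1 E-box. The form CACCTG or its reverse complement CAGGTG was in the Slamf1 stretch alone among the 6 and in 17.2% of all windows, and CAGCTG was in none of the 6 and in 13.0% of all windows. A match is a description of the sequence and no measure of binding.

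The other receptors that bind SAP were Slamf6, Ly9 and Cd84, and beside them stood Slamf7, a receptor of NK and plasma cells that signals through a related adaptor. Their 7 probe sets had log2 changes between -0.07 and 0.16, and 0 of 7 passed by limma or had an unadjusted p under 0.05, which 12.5% of all probe sets had. The 95% confidence intervals of the 7 lay between -0.31 and 0.34, and the change of the brightest Slamf1 probe set was outside all of them. That change was also outside the intervals of the dimmer Slamf1 probe sets, 0.01 to 0.39 and 0.005 to 0.26. The interval of a dim probe set therefore cannot show that its gene lacked a change of that size. Of the 7, 4 lay below the median of all probe sets, where background in the signal may compress a change. This was not tested.

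Ly9 read 99.9, 93.5 and 95.3 on wild-type arrays 1 to 3 and 107, 117 and 99.6 on E2A-deficient arrays 1 to 3. The groups overlapped at wild-type replicate 1 and E2A-deficient replicate 3 (log2 change 0.16, SE 0.0727, limma adjusted p = 0.440). Cd84, which is also carried by platelets and B cells, had a brighter probe set at 98.5, 99.0 and 97.2 in wild-type and at 82.5, 93.3 and 123 in E2A-deficient cells. Its means were nearly equal, at 98.2 ± 0.891 and 99.6 ± 21.0 (SD, n = 3), and E2A-deficient values lay on both sides of the wild-type values. Its dimmer probe set gave a log2 change of -0.07 (limma adjusted p = 0.762).

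Slamf6 had 3 probe sets, each with another transcript sequence in the annotation. The brightest read 87.1, 76.3 and 83.2 in wild-type and 73.0, 88.3 and 90.1 in E2A-deficient cells, and the groups overlapped, with a change of 0.02 on the log2 scale (SE 0.0947, limma adjusted p = 0.972). Its other probe sets gave 0.10 and -0.04. Slamf7 read 67.4, 70.3 and 64.8 in wild-type and 71.4, 68.9 and 66.8 in E2A-deficient cells, below the array medians on every array, with a log2 change of 0.03 (limma adjusted p = 0.918).

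Cd48 encodes a lipid-anchored SLAM family protein with no signalling tail of its own, which serves as the ligand of Cd244 and Cd2. It read 416, 331 and 368 on wild-type arrays 1 to 3 and 185, 204 and 194 on E2A-deficient arrays 1 to 3. All E2A-deficient values lay below all wild-type values, and they varied less. The mean went from 372 ± 42.4 to 194 ± 9.33 (SD, n = 3), which is -0.93 on the log2 scale (SE 0.0898, 95% confidence interval -1.14 to -0.72, limma adjusted p = 0.00395). Wild-type cells were thus 1.90-fold higher. Adding the beta-actin ratio to the model gave -0.79, which missed the threshold (limma adjusted p = 0.0632). Its adjusted p ran from 0.0012 to that value over 17 alternatives, of which 16 passed. Wild-type replicate 2, whose ratio lies within the E2A-deficient range, had the lowest wild-type value, 331, and the highest E2A-deficient value was 204. The part of the ratio in the Slamf1 and Cd48 results was not tested beyond this covariate.

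**Figure D3:**
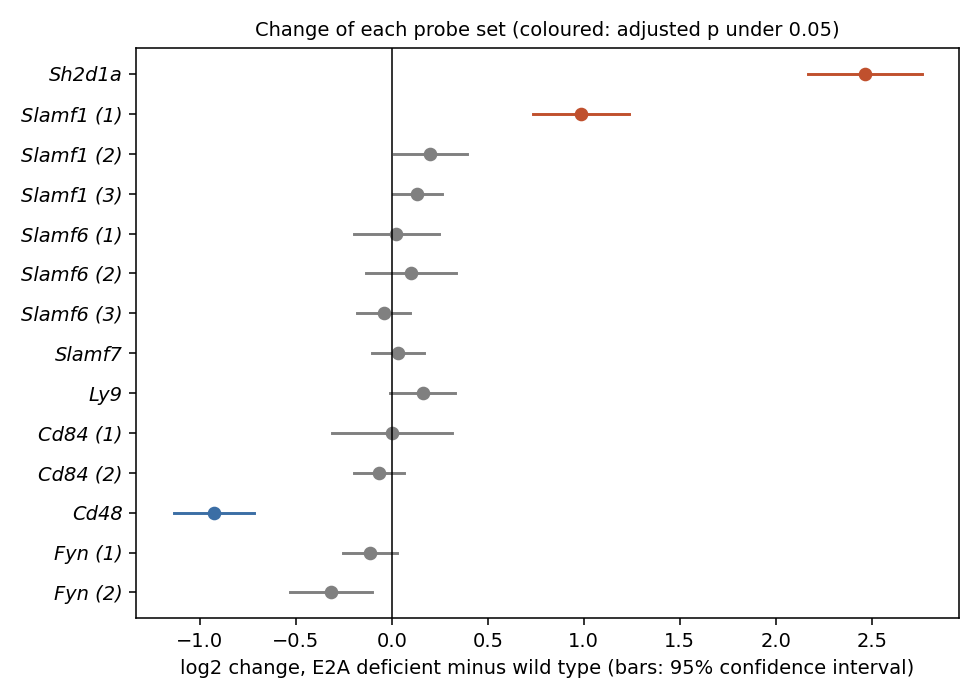
Log2 change of each of the 14 probe sets, E2A deficient minus wild type, with its 95% confidence interval from limma. Coloured points passed the threshold: Sh2d1a at 2.46, the brightest Slamf1 probe set at 0.99 and Cd48 at -0.93, while the 7 probe sets of Slamf6, Slamf7, Ly9 and Cd84 lie between -0.07 and 0.16.

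The 6 receptor and ligand genes lie side by side on chromosome 1, in the order Ly9, Slamf7, Cd48, Slamf1, Cd84 and Slamf6 in the RefSeq annotation, which was used here for names and order. The gene that fell, Cd48, and the gene that rose, Slamf1, are adjacent but for 3 small annotated features, and genes on both sides of the pair were not called. Between the outermost members 8 other features are annotated, and 0 of them had a probe set of its own. Of the 3 protein-coding genes on each side, 5 were measured, with 9 probe sets. By limma 0 of these 9 were called. Their log2 changes were -0.08 for Itln1, -0.51 and -0.26 for Cd244a, between -0.03 and 0.10 for Vangl2, 0.0045 for Nhlh1, and 0.03 and 0.11 for Ncstn. Their limma adjusted p-values ran from 0.384 to 0.993, and 1 of the 9 had an unadjusted p under 0.05, against 12.5% of all probe sets.

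**Figure D4:**
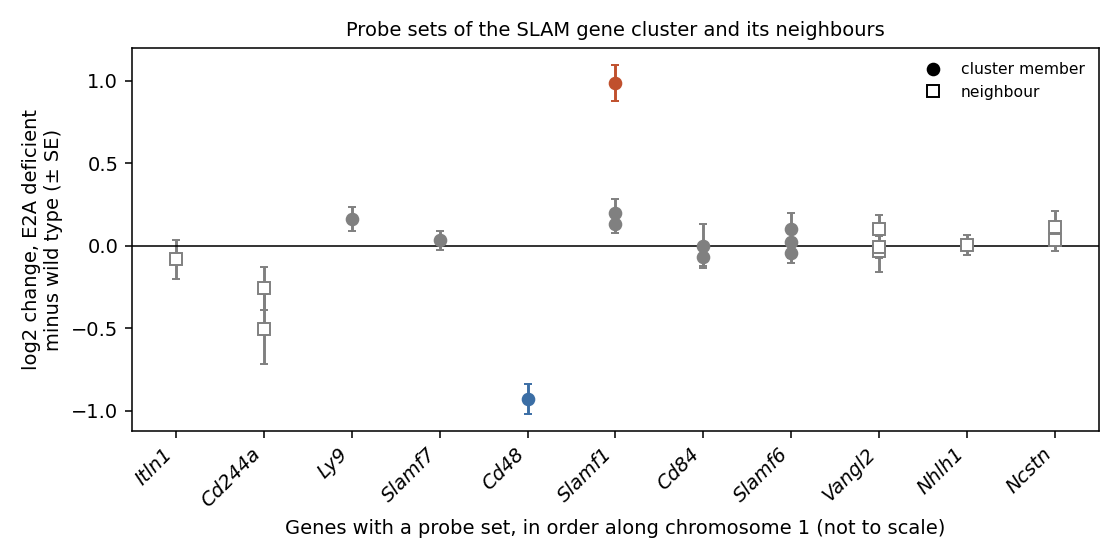
Log2 change with its SE for every probe set of the SLAM cluster on chromosome 1 and its measured neighbours, in genomic order and not to scale. Filled circles are members and open squares neighbours. Cd48 at -0.93 and Slamf1 at 0.99 are the called genes, and Cd244a, at -0.51 and -0.26, was not called.

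Cd244a, the receptor that binds Cd48, read 206, 396 and 306 on wild-type arrays 1 to 3 and 193, 207 and 219 on E2A-deficient arrays 1 to 3. The wild-type arrays varied widely and replicate 1 fell within the E2A-deficient values, and the log2 change of -0.51 did not pass (SE 0.210, limma adjusted p = 0.384). Without wild-type replicate 1 the change was -0.76 and passed (limma adjusted p = 0.0456), and without wild-type replicate 2 it missed the threshold at -0.29 (limma adjusted p = 0.576). With the beta-actin ratio it was -0.84 (limma adjusted p = 0.384). Over its alternatives the adjusted p lay between 0.0456 and 0.631. Cd2, the other receptor for Cd48, gave 0.01, and the SLAM family genes Slamf8 and Slamf9 gave -0.01 and -0.05. Cd2 and Slamf8, at means of 65.5 and 63.9 in wild-type cells, lay below the median of all probe sets. Background may compress a change there, which was not tested. So of the 4 measured genes of the other SLAM family list 0 rose and 0 fell by limma, and 1, Cd244a, had an unadjusted p under 0.05, which 16.2% of all 18193 genes had.

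Further genes of the pathway were read from 5 lists, each gene by its brightest probe set. Of 37 measured genes 3 rose, 1 fell and 33 did not pass, with a median log2 change of 0.07. Over all 18193 genes the median was 0.01, and 1.92% were called higher and 0.901% lower. The SAP-type adaptor list had 1 measured gene, Sh2d2a, which encodes an adaptor of T-cell kinases and gave -0.18 (limma adjusted p = 0.425).

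Among the other Src family kinases and their regulators, 7 were measured and 1 fell. It was Pag1, the membrane adaptor that brings the inhibitory kinase Csk to Src kinases such as Fyn. Pag1 read 579, 476 and 456 in wild-type and 260, 299 and 325 in E2A-deficient cells. The groups did not overlap, and the log2 change was -0.77 (SE 0.115, limma adjusted p = 0.0235). Its 3 other probe sets, all dimmer, gave 0.08, -0.04 and -0.01. The Pag1 call was lost in 5 of 17 alternatives. The change was then -0.81 without wild-type replicate 2 (limma adjusted p = 0.069), -0.68 without E2A-deficient replicate 1 (0.0671), -0.78 without E2A-deficient replicate 2 (0.0755), -0.69 with the beta-actin ratio (0.279) and -0.77 with the replicate block (0.0857). Over all 17 the change lay between -0.84 and -0.67, with an adjusted p of 0.00838 to 0.279. The kinase gene Src, next in the list by p-value, gave 0.19 and did not pass (limma adjusted p = 0.401).

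Of the effectors downstream of SLAM receptors 17 were measured and 0 were called by limma, while 5 had an unadjusted p under 0.05, against 16.2% of all genes. The smallest p-values belonged to Plcg1, a phospholipase of antigen-receptor signalling, and Rasa1, a Ras GTPase-activating protein. Plcg1 read 446, 347 and 462 in wild-type and 248, 281 and 288 in E2A-deficient cells, lower on all 3 (log2 change -0.61, limma adjusted p = 0.0575; over its alternatives 0.0252 to 0.288). Rasa1 read 167, 211 and 202 in wild-type and 252, 285 and 274 in E2A-deficient cells, higher on all 3 (0.49, limma adjusted p = 0.0668; over its alternatives 0.0442 to 0.512).

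Among genes of the innate-like T cells that depend on SAP, 8 were measured, 3 rose and 5 did not pass. Of the 8, 4 had an unadjusted p under 0.05, against 16.2% of all genes. The 3 that rose were known from earlier results of the same arrays, so their count is no independent evidence. Zbtb16, which encodes PLZF, the regulator of innate-like T cells, read 337, 250 and 242 in wild-type and 669, 751 and 758 in E2A-deficient cells (log2 change 1.40, SE 0.129, limma adjusted p = 0.00336). Its dimmer probe sets gave 1.84, which was called (limma adjusted p = 1.47e-04), and 0.69, which was not (0.103). Gata3, a regulator of T cells and innate lymphoid cells, gave 1.45 and the cytokine gene Il4 gave 1.09. All 3 genes were higher on every E2A-deficient array. Read by the brightest probe set, all 3 lost their call once the beta-actin ratio entered the model. Their log2 changes were then 1.51 for Zbtb16, 1.37 for Gata3 and 1.13 for Il4 (limma adjusted p = 0.0522, 0.0804 and 0.0919). Egr2, Tbx21, Il2rb, Cd1d1 and Runx1 gave -0.03, 0.07, -0.03, 0.21 and -0.51, and none of them passed. Runx1 was lower on all 3 E2A-deficient arrays (limma adjusted p = 0.132, unadjusted p = 0.00518). Its dimmer probe sets gave -0.39, -0.39, -0.28, -0.25 and -0.02, and none of those was called. Egr2, Tbx21 and Il2rb, at means of 58.4, 59.3 and 78.4 in wild-type cells, lay below the median of all probe sets. Background may compress a change there, which was not tested, and Il4 passed from a wild-type mean of 67.5.

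Other blood cells carry SLAM receptors too, so their marker lists were read beside the members. Of 6 measured NK-cell markers 0 were called by limma and 1, Gzma, had an unadjusted p under 0.05, and their summed intensity was 928 to 1080 in wild-type and 838 to 890 in E2A-deficient cells. Of these NK markers, Ncr1, Klrk1, Klrd1 and Eomes lay below the median of all probe sets and Prf1 just above it. Gzma was bright, with a mean of 658 in wild-type and 511 in E2A-deficient cells. It made up most of the NK-cell sum and of the difference in that sum. Of 6 B-cell and plasma-cell markers 0 were called and 0 had an unadjusted p under 0.05, with sums of 449 to 495 and 446 to 473. Of 7 myeloid markers 1 fell, Lyz2 (log2 change -0.50, limma adjusted p = 0.0222), and 2 had an unadjusted p under 0.05, with sums of 1300 to 1552 and 1420 to 1657. Of 5 stem-cell markers 1 rose, Meis1 (0.71, limma adjusted p = 0.0208), and 2 had an unadjusted p under 0.05, with sums of 531 to 559 and 617 to 666. Of all genes 1.92% were called higher and 0.901% lower, and 16.2% had an unadjusted p under 0.05. Of 4 megakaryocyte and platelet markers 0 were called and 1, Itga2b, had an unadjusted p under 0.05, with sums of 528 to 608 and 626 to 853. The stem-cell sum differed mostly through Meis1, at a mean of 134 in wild-type and 221 in E2A-deficient cells, and the megakaryocyte sum through Itga2b, at 366 and 510. The erythroid sums were 398 to 424 and 431 to 507, where Klf1 read 85.7, 84.9 and 141 on E2A-deficient arrays 1 to 3. Those of thymic epithelium and stroma were 583 to 640 and 647 to 694, with Krt8 at means of 86.5 and 119. The stem-cell, megakaryocyte, erythroid and stromal sums did not overlap between groups and were higher in E2A-deficient cells. The NK-cell sum did not overlap and was lower. Of 18193 single genes 3619 did not overlap, and no such share was computed for sums. The part of these sums in the Slamf1 result was not tested. Dendritic, erythroid, mast-cell and stromal markers gave 0 calls by limma among 5, 5, 5 and 8 measured genes, of which 0, 1, 0 and 1 had an unadjusted p under 0.05.

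**Figure D5:**
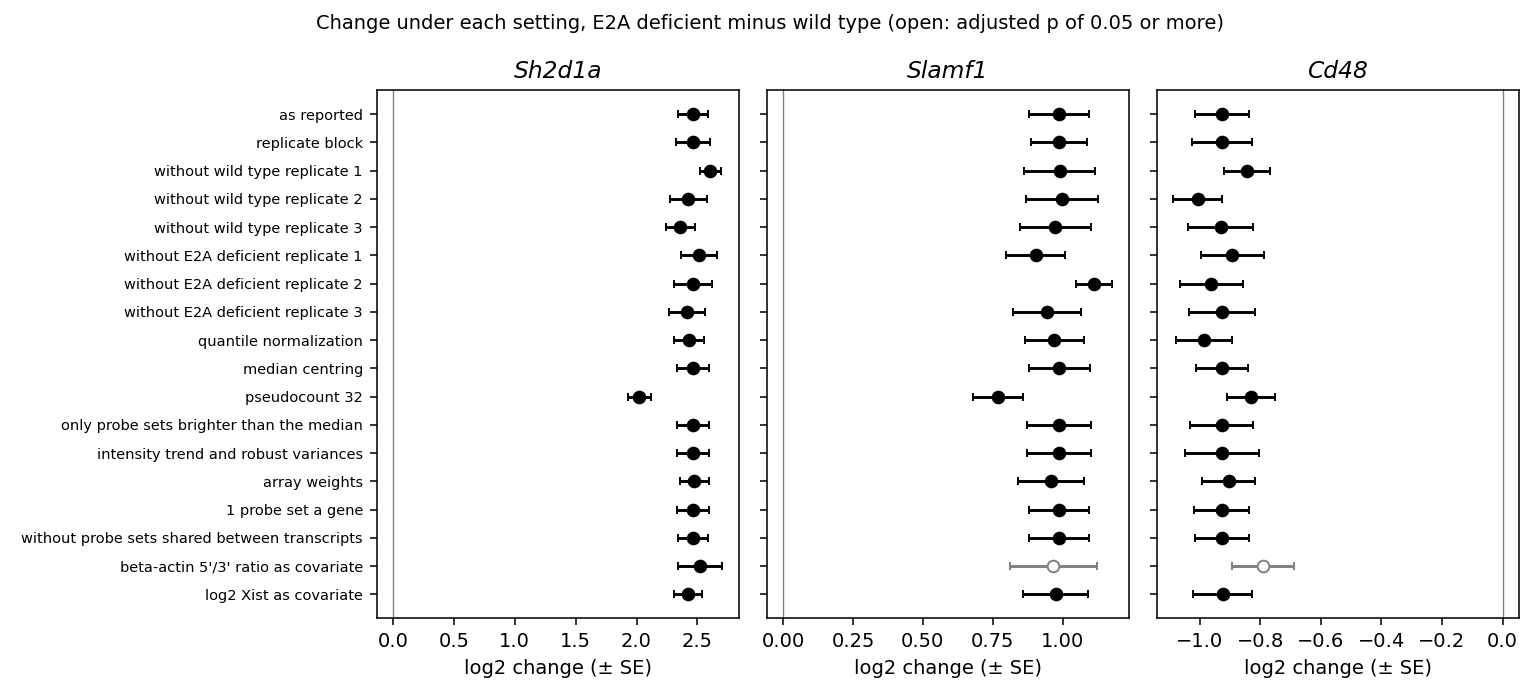
Log2 change with its SE for Sh2d1a, the brightest Slamf1 probe set and Cd48 under each setting. Filled points passed at an adjusted p under 0.05. Sh2d1a passed throughout, and Slamf1 and Cd48 passed in all settings shown except with the beta-actin ratio in the model, where they were 0.97 and -0.79.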

How the data were processed

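The deposited values were 1 linear intensity per probe set and array. RMA is the only tool in the submitters' processing notes, with no version. The step from log2 back to linear values, and any further scaling, are not given in the sources used here. Per the labels' protocols, cRNA was amplified through a repeated round of in vitro transcription, which favours 3' ends.

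Columns were matched to samples by accession. The 64 control probe sets were left out, and log2(intensity + 1) of 45037 probe sets was fitted by a linear model in limma 3.58.1 (R 4.3.3), E2A deficient against wild type, two-sided, with no filter and no further normalization. Of these probe sets 34945 named 1 gene, 932 several and 9160 none. Of the members' probe sets, 0 had a name ending in _s_at or _x_at. RefSeq matched 34741 by Entrez identifier. The steps were tested on simulated data. The rule named every member, every pathway-list gene that passed, the 2 with the smallest p-values in a list where fewer than 2 passed, 5 genes nearest in profile, and genes beside the cluster. Cd2, Slamf8 and the 5 innate-like T-cell genes that did not pass are named outside it, to give their lists whole; marker-list genes were named after their values were seen. Members and lists were chosen with earlier results of these data known. Figures were drawn with matplotlib 3.10.9.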

Additional observations from a re-analysis of the deposited data

How the results depend on the processing

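Of the 14 member probe sets' changes, 213 of 226 values under alternatives kept their direction and their side of the threshold, 2 lost the call and 11 changed sign. The settings were a replicate block, leaving out each array, quantile normalization, median centring, a pseudocount of 32 and the brighter 22518 probe sets alone. Others were robust variances with an intensity trend, weights per array, 1 probe set a gene and no probe sets named _s_at or _x_at. The beta-actin ratio was a covariate in another, and log2 Xist, chosen after seeing the data, in the last. With the beta-actin ratio 1 member probe set was called instead of 3, 0 pathway genes instead of 4, and 114 of all probe sets instead of 804. The covariate leaves fewer degrees of freedom, but so does log2 Xist. With log2 Xist 688 of all probe sets, 3 members and 4 pathway genes were called. The cause of the losses with the beta-actin ratio was not tested further. The count of 0 pathway genes is by limma. Without 1 array the members called were 3 each time, the pathway genes 3 to 5 and all probe sets 358 to 563, of which wild-type replicate 1 left 563, 2 left 418 and 3 left 460, and E2A-deficient replicate 1 left 422, 2 left 449 and 3 left 358. The replicate block left 471 of all probe sets, 3 members and 5 pathway genes, with Pag1 lost (limma adjusted p = 0.0857) and Rasa1 and Runx1 gained. Same-numbered arrays correlated at 0.041, 0.041 and -0.036 in their deviations from the group means. Wild-type replicates 1 and 2 correlated best with their own number, and replicate 3 correlated worst with its own. Differently numbered arrays correlated at -0.076 to 0.037. With all values this close to none, the check cannot tell whether the numbers pair the samples. The sign changes were all of probe sets that were not called. The brightest Slamf6 probe set ranged from -0.032 to 0.12 without 1 array, Slamf7 was -0.030 with the beta-actin ratio, and the brighter Cd84 probe set ranged from -0.16 to 0.12 without 1 array and was 2.8e-05 after median centring, 0.0030 with a pseudocount of 32 and 0.045 with the beta-actin ratio; the cause was not tested. Dim signal limits Slamf7 and the dimmer probe sets of Slamf1, Slamf6 and Cd84, whose 6 probe sets read 58.3 to 79.5.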
